A study of Mus musculus with 2 samples.

Results

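The genes described here encode transcription factors of 14 developmental families, Hoxa, Hoxb, Hoxc, Hoxd, Dlx, Lhx, Msx, Nkx, Pax, Pbx, Meis, Irx and Emx together with the Six-family genes Six2 to Six6. Members were taken by symbol, as probe sets named to a single gene that lies off chromosome 14. They came to 61 of 10313 measured genes, on 80 of 15273 such probe sets. Of these, 59 were protein-coding, and Dlx1as and Dlx6os2 were noncoding antisense transcripts under the floor on both arrays. No Emx gene was in the table, and the counts below are over the 59 protein-coding members. A probe set named to both Hoxd3 and Hoxd4 was left out.

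The study hybridised RNA of the mouse embryonic stem cell line 46C to Affymetrix arrays, with 1 array for control cells and 1 for cells that overexpress the long noncoding RNA lincU. Line 46C carries a green fluorescent protein reporter at the neural gene Sox1, so the reporter allele was present in both groups. Both cultures grew in 15% serum with leukaemia inhibitory factor (LIF) at 1000 U/ml, over feeder cells that were taken away before lysis. Age and passage of the cultures are not given in the sources used here, nor is the vector used or whether the overexpressing cells were a clone or a pool. No probe set was named lincU, so its level could not be checked. With 1 array per group there is no replicate, and every difference below is between these 2 arrays only, with no test.

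The homeodomain is a DNA-binding fold shared by several large families of developmental regulators. Hox genes lie in 4 clusters and specify position along the body axis, and their order in a cluster follows the order in which they act, with high paralog numbers acting posteriorly. Pbx and Meis proteins bind DNA together with Hox proteins. Pax, Nkx, Lhx, Irx, Msx, Dlx and Six-family genes direct the eye, kidney, brain, heart and limb, and some Pax proteins carry a paired domain without a full homeodomain. In embryonic stem cells most of these genes are held silent by Polycomb complexes while their promoters also carry marks of activity.

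Signals are on the log2 scale, with 1 value for a probe set on each array. Each gene was read from its probe set of highest mean signal. A gene was called bright if its higher signal reached the median of that array, which was 7.96 in control and 7.90 in overexpressing cells. Each array had a floor at its 25th percentile, 5.73 in control and 5.65 in overexpressing cells, and lower values were treated as equal to it, because order among them has no meaning. As a yardstick, different bright probe sets of 1 gene gave log2 differences between the arrays with an SD of 0.23, over 1732 genes. For dim probe sets above the floor that SD was 0.47, over 273 genes. Neither holds variation between cultures.

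Most members had low signal in both cultures. Only 6 of 59 were bright, Hoxa10, Hoxa11, Pax6, Pbx2, Pbx3 and Six4, against 54.4% of all genes. In control cells 3 of 59 stood above the array median, Pbx2, Pbx3 and Six4, against 52.4% of all genes. In overexpressing cells 5 did, against 52.2% of all genes, since Pbx3 dropped under the median and Hoxa10, Hoxa11 and Pax6 came above it. Another 24 members lay under the floor on both arrays, against 19.7% of all genes, 12 on 1 array, and 17 lay between floor and median on both. The genes just short of the brightness limit were Nkx2-9, at 7.82 in overexpressing cells, and Irx3 and Nkx1-2, both at 7.87 in control cells. Hoxa11, at 8.12 in overexpressing cells, was just inside it.

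**Figure D1:**
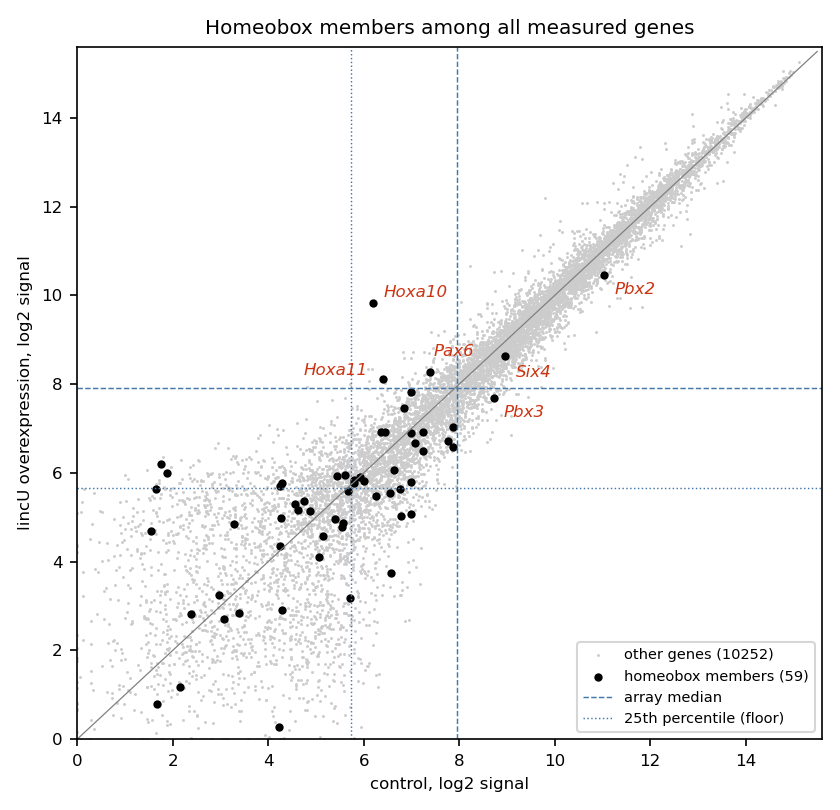
Log2 signal in control cells (horizontal axis) and lincU-overexpressing cells (vertical axis), 1 point per gene, with the 59 homeobox members in black and other genes in grey. Dashed lines are the array medians and dotted lines the 25th percentiles; the 6 bright members are named, and Hoxa10 lies far above the diagonal while most members lie below both medians.

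The members with the largest differences among those that were bright were the posterior Hoxa genes. Hoxa10, which patterns the lumbar spine, limb and uterus, read 6.19 in control cells and 9.82 in cells with raised lincU, as log2 signals. It was thus dim in control and clearly above the median in the other culture, a log2 difference of 3.63 or 12.4-fold. Hoxa11, its neighbour, which acts in limb, kidney and uterus, went from 6.40 to 8.12, a log2 difference of 1.72 or 3.30-fold. Both control values lay above the floor and below the median, so the folds depend on how much of the control signal is background. With each array's floor moved up to its 40th percentile the log2 differences were 2.76 and 1.05, as bounds, since both control values then lay under it. These 2 were the only bright members at least 2-fold higher, and 1.53% of the 5609 bright genes were. Both counted as bright through the overexpression array alone, and with brightness required on both arrays 0 members were 2-fold higher. The pair was also singled out with earlier results of these data known, so the share is given for scale only. Each was read from a single probe set, that of Hoxa10 being of a type that covers alternative transcripts of a gene.

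The promoters of this pair are shown because the genes lie side by side on chromosome 6 and both had higher signal, together with that of Pbx2, which was bright in both cultures. The sequences are those of RefSeq on assembly GRCm38.p6, as the 250 bases before each listed start, 5′ to 3′ on the gene's own strand, with every CpG dinucleotide in capitals. Hoxa10 has 2 listed starts, 5915 bases apart. The windows are chr6:52234940-52235189 (minus strand) for the downstream Hoxa10 start, chr6:52240855-52241104 (minus strand) for the upstream one, chr6:52245811-52246060 (minus strand) for Hoxa11 and chr17:34592009-34592258 (plus strand) for Pbx2.
Hoxa10, downstream start: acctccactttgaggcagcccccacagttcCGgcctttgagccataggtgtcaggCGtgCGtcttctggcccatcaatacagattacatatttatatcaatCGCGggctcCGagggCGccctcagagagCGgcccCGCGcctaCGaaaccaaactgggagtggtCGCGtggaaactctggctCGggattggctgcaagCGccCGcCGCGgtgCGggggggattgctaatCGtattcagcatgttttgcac
Hoxa10, upstream start: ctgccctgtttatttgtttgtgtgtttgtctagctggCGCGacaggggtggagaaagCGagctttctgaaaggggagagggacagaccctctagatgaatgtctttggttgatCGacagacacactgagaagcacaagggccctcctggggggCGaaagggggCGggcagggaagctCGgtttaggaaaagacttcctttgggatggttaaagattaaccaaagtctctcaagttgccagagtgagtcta
Hoxa11: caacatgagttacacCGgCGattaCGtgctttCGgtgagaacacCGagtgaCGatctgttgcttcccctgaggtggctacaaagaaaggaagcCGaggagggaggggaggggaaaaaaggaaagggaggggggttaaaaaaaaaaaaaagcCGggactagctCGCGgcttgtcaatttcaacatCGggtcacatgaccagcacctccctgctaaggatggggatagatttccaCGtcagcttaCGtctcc
Pbx2: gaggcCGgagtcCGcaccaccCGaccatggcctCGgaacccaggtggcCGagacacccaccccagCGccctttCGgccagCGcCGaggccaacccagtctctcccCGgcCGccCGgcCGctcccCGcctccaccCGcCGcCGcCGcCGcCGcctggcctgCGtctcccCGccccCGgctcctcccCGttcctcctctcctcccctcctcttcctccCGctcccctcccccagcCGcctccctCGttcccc

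The downstream Hoxa10 window held 20 CpG dinucleotides, the upstream one 7, the Hoxa11 window 13 and the Pbx2 window 27. The median over 27025 genes, with 1 window of this length each, was 6. Windows with at least as many made up 17.7% of these for the downstream Hoxa10 start, 46.5% for the upstream start, 31.8% for Hoxa11 and 8.16% for Pbx2. Motifs were searched as letters on both strands. The downstream Hoxa10 window held 1 match to TATAAA, the letters of a TATA box, found in 13.0% of all windows, and 1 to CCAAT, found in 34.5%. Both matches lay on the strand opposite to the gene, so the first is not read as a TATA box of this start. The other windows held neither motif. None of the 4 windows held TTTATG, bound by CDX and posterior HOX proteins and found in 11.1% of windows, TAATTA, a homeodomain core site found in 4.90%, or TGATNNAT, a PBX-HOX site found in 7.91%. These matches describe letters only. Promoters were listed for 45 of the 59 members, 76.3%, under the 80% set for a check over members, so base composition over all members is not given.

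The rest of the Hoxa cluster was dim. Hoxa9, which lies on the other side of Hoxa10, read 6.85 in control and 7.47 in overexpressing cells. Its difference of 0.62 had the same direction and exceeded the SD of 0.47 between dim probe sets of a gene. Hoxa13, the most posterior gene, was under the floor in control at 4.24 and just above it in overexpressing cells at 5.69. Hoxa3, an anterior gene of neck and pharynx development, went from 6.63 to 6.06, a difference of -0.57. Hoxa2, which patterns the hindbrain, and Hoxa4 were under the floor on both arrays. Hence Hoxa9, Hoxa10 and Hoxa11, which are adjacent, were higher in overexpressing cells, while the anterior members Hoxa2, Hoxa3 and Hoxa4 were lower or under the floor.

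Genes around the cluster were compared next. The nearest bright genes on 1 side, Skap2 and Snx10, had log2 differences of 0.11 and 0.33, and those on the other, Hibadh and Tax1bp1, of 0.14 and 0.14. Dim genes are not among these. The dim homeobox gene Evx1, which flanks the Hoxa cluster, went from 6.23 to 6.83. Its difference of 0.59 exceeded the SD of 0.47 between dim probe sets of a gene. Evx2, which flanks the Hoxd cluster, differed by -0.95, a bound. Over the 20 nearest bright genes before the cluster the median was 0.00 and over the 20 after it 0.07. The 40 ranged from -0.87 to 1.55. Of them 1 differed by at least 2-fold, Stk31, from 7.55 to 9.10, against 1.53% of bright genes higher and 1.3% lower by as much.

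The other Hox clusters had no bright gene. All 4 measured Hoxb genes, Hoxb3, Hoxb5, Hoxb7 and Hoxb13, lay under the floor on both arrays. In the Hoxc cluster, Hoxc6 was near the floor at 5.91 and 5.90, Hoxc4 under it on both arrays, and Hoxc13, a gene of hair and nail, went from under the floor to 6.21. The 2 further probe sets of Hoxc6 had control signals of 6.51 and 5.84 and were under the floor in overexpressing cells. In the Hoxd cluster, Hoxd8 went from 6.44 to 6.91, a difference of 0.47, and Hoxd1 from under the floor to 6.01. Hoxd9, which shares paralog number with Hoxa9, had the opposite direction to it, from 6.98 to 5.80, a difference of -1.19. Hoxd10 and Hoxd13, the Hoxd relatives of Hoxa10 and Hoxa13, lay under the floor on both arrays.

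**Figure D2:**
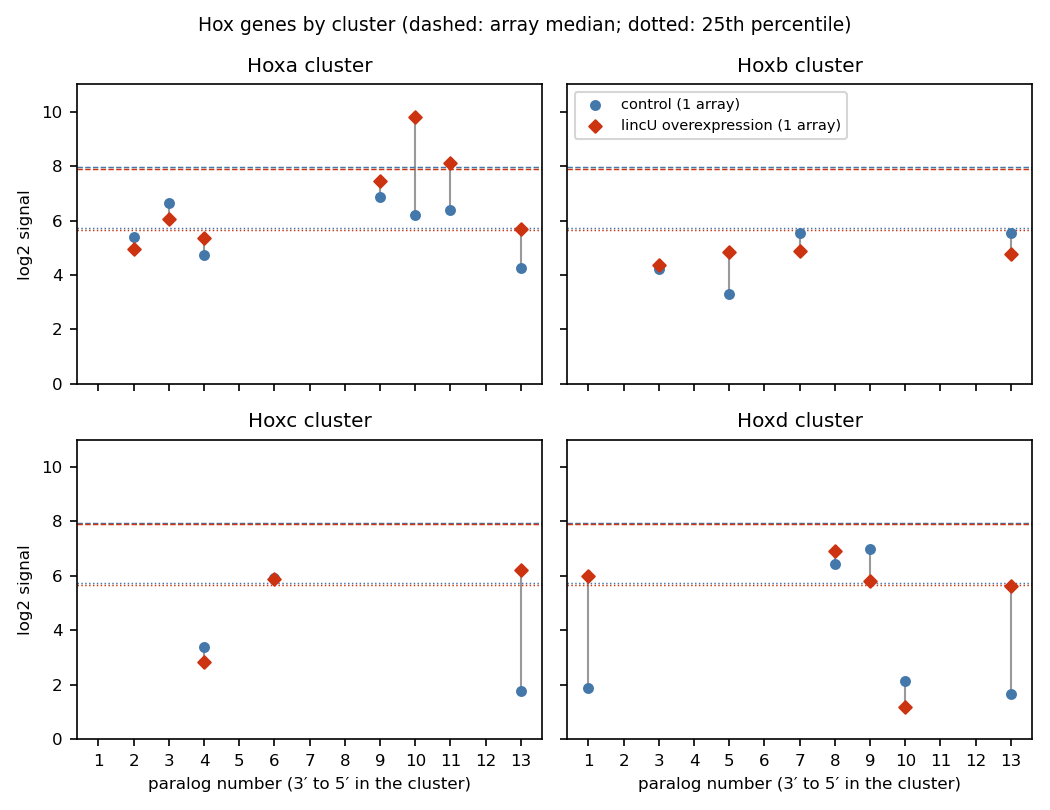
Log2 signal of each measured Hox gene by paralog number (horizontal axis) in the 4 clusters, with control as blue circles and lincU overexpression as red diamonds, 1 array each. Dashed lines are array medians and dotted lines 25th percentiles; only Hoxa10 and Hoxa11 cross the median, at 9.82 and 8.12 in overexpressing cells.

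Pbx2, Pbx3 and Meis2, of the Hox cofactor families, had lower signal in overexpressing cells. Pbx2, a cofactor of the TALE class of homeodomain proteins, read 11.03 in control cells and 10.46 with lincU raised, a difference of -0.58. Its second probe set gave -0.62. Pbx3, of the same family, went from 8.72 to 7.68, a difference of -1.04, and was the only bright member at least 2-fold lower, against 1.3% of bright genes. This is at the limit, since centring each array on its median gave -0.98 and quantile normalization -0.96. Meis2, a TALE factor that helps retain Pbx proteins in the nucleus, was dim, at 7.76 and 6.73, a difference of -1.03. Under the same scalings that became -0.98 and -0.94. Meis3 was under the floor on both arrays. Among bright genes 23.3% were lower by more than the SD of 0.23. The related cofactor genes Pknox1 and Pknox2, both dim and outside the families counted here, differed by -0.12 and 0.05.

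Six-family proteins act with Eya and Dach proteins in eye, muscle and kidney. Six4 was bright in both cultures, at 8.96 and 8.63, a difference of -0.33, and its second, dim probe set gave -0.16. Six2, which maintains nephron progenitors, went from 6.56 to under the floor, Six3, a forebrain and eye gene, from 6.98 to under the floor and Six5 from 6.77 to under the floor. With the floor in place these 3 differences were -0.91, -1.33 and -1.12, which are bounds. Six6 was under the floor on both arrays. Six2, Six3 and Six5 were above the floor through the control array alone, so they could only be lower by this measure. Averaging the 3 probe sets of Six3 put both arrays under the floor.

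Among the Pax genes, Pax6, the regulator of eye and neural progenitors, read 7.38 in control and 8.26 in overexpressing cells. This difference of 0.88 rests on 1 of its 3 probe sets, since another was under the floor on both arrays and the last went from under the floor to 5.81. The mean over the 3 gave -0.16. Pax8, of thyroid and kidney, went from 6.76 to under the floor, a bound of -1.10. Pax3, of neural crest and muscle, went from under the floor to 5.78 on 1 probe set, and Pax5 and Pax9 were under the floor on both arrays.

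The Nkx genes were dim, 4 of 9 being above the floor. Nkx1-2, a gene of the caudal epiblast and neural plate, went from 7.87 to 6.57, a difference of -1.29, and a second probe set gave -0.22. Nkx2-9, of the ventral neural tube, went the other way, from 6.98 to 7.82, a difference of 0.83, and Nkx2-4 from 6.36 to 6.91, a difference of 0.55. Nkx2-3, which acts in gut and spleen, stood at 7.08 and 6.68. Nkx2-1, Nkx2-2, Nkx3-2, Nkx6-1 and Nkx6-2 were under the floor on both arrays.

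Of the remaining families none had a bright gene. Irx3 and Irx5, which act in heart and limb, went from 7.87 to 7.05 and from 7.25 to 6.92, differences of -0.82 and -0.33. Irx2 differed by -0.09 and Irx6 by 0.04, and Irx4, a ventricular gene, was under the floor on both arrays. Msx1, a BMP-responsive gene, went from 7.23 to 6.49 on 1 probe set, a difference of -0.74, but the other went from under the floor to 6.22. Msx3 went from 6.58 to under the floor. Of 8 Lhx genes, Lhx4, Lhx5 and Lhx8 were under the floor on both arrays, and in the other 5 the higher signal was at most 6.25 on the probe set used. Lhx3, a motor neuron and pituitary gene, went from 6.25 to under the floor. Lhx9 had probe sets of opposite direction, at -0.03 and, as a bound, 0.71. Dlx3 and Dlx4 were under the floor on both arrays.

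**Figure D3:**
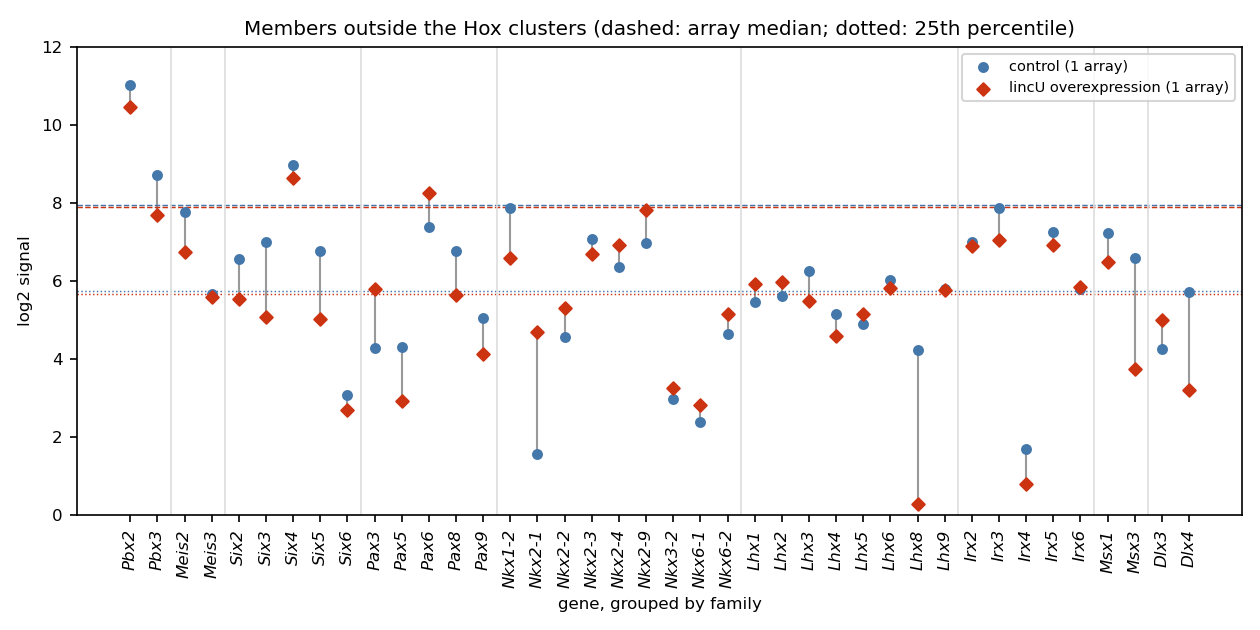
Log2 signal of the 40 members outside the Hox clusters, grouped by family along the horizontal axis, with control as blue circles and lincU overexpression as red diamonds, 1 array each. Dashed lines are array medians and dotted lines 25th percentiles; Pbx2, Pbx3 and Six4 are above the median in control, and Pax6 in overexpressing cells.

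Taking the dim members as a whole, 6 of 53 were at least 2-fold lower, Hoxd9, Meis2, Nkx1-2, Pax8, Six3 and Six5, against 3.25% of all dim genes. Of these, Pax8, Six3 and Six5 were above the floor through the control array alone, so they could only be lower by this measure. No dim member was at least 2-fold higher, against 1.42% of dim genes. That count changed with the scaling and with the treatment of low signals. Under centring, quantile normalization and the loess trend it was 5, without Meis2. With no floor but a pseudocount, 2 dim members were 2-fold lower, Msx3 and Six3, against 2.1% of dim genes, and 2 were higher, Hoxc13 and Hoxd1, against 1.02%. With neither floor nor pseudocount, 11 of 53 were 2-fold lower, against 19.7% of dim genes, and 7 were higher, against 15.7%. Those differences include values under the floor, whose order has no meaning. With probe sets averaged 4 of 55 were lower, Hoxd9, Meis2, Pax8 and Six5. With the floor at each array's 40th percentile 0 of 4704 dim genes and 0 of the 53 members were 2-fold apart. That floor lay only 0.89 below the median in control and 0.95 in overexpressing cells. A dim gene then had almost no room for a 2-fold difference, so this count was nearly fixed by the setting. Over the 29 dim members above the floor on at least 1 array the median log2 difference was -0.19, against -0.09 over 2670 such genes. Over the 6 bright members the median was 0.28, against 0.00 over all bright genes, with 3 higher and 3 lower. Of the 6, Hoxa10, Hoxa11, Pax6 and Pbx3 were bright through 1 array alone. The direction of the median turned with brightness required on both arrays, to -0.45, and at the 75th percentile, to -0.58, where 2 members and 1 were left.

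Homeobox genes outside these families were listed separately, and 16 of 54 measured were bright. Of these, 6 were higher and 8 lower by more than 0.23, against 18.7% and 23.3% of bright genes, and the median was -0.29. One of the lower genes, Otx2, lies on chromosome 14. Cdx2, the trophoblast and posterior regulator, went from 8.65 to 6.76, a difference of -1.89. Rhox5, an X-linked gene of the reproductive homeobox cluster, went from 12.64 to 11.12, and Pou3f1, of the epiblast, differed by -0.75. Gbx2, at 10.73 and 10.79, differed by 0.06. Of the 6 higher genes, Zfhx3 differed by 0.59, the stem cell gene Nanog by 0.57 and Hhex, of liver and endoderm, by 0.45.

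The Polycomb genes, whose products repress Hox clusters, were well represented. Of 25 measured 20 were bright, with 2 higher and 7 lower by more than 0.23, against 18.7% and 23.3% of all bright genes. The median over the 20 was -0.09. Suz12, a core subunit of PRC2, differed by 0.38, while Ezh2, its catalytic subunit, and Eed differed by -0.09 and 0.10. Among PRC1 genes, Cbx2, which encodes a chromodomain subunit, differed by -0.37, Bmi1 by -0.37, Scmh1 by -0.66 and Phc1 by 0.28. No bright one differed by 2-fold, against 1.53% of all bright genes higher and 1.3% lower by as much. Of the dim ones Phf1, a PRC2 partner, went from 6.64 to 7.79, a difference of 1.15. Of the Trithorax and H3K27 demethylase genes, whose products keep Hox clusters active, 11 of 12 were bright, with a median of -0.16. By more than 0.23, 3 were higher and 2 lower, against the same 18.7% and 23.3%. Wdr5, a shared subunit of the methyltransferase complexes, differed by 0.50 and the methyltransferase gene Kmt2a by -0.16.

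Retinoic acid is a known inducer of Hox genes. Of 16 measured genes of its pathway 9 were bright, 4 higher and 3 lower by more than 0.23, against 18.7% and 23.3% of all bright genes. The median over the 9 was 0.08. That median was -0.06 with brightness required on both arrays, -0.21 over all 16 and 1.11 at the 75th percentile. The value of 1.11 was taken over fewer than the 9 genes and is that of Crabp1, so it does not describe the pathway. The retinoic acid responsive gene Stra8 differed by 1.36 and Crabp1, which encodes a cellular retinoic acid binding protein, by 1.11. The receptor genes Rxra and Rarg differed by 0.94 and -0.58, and the corepressor gene Nrip1 by -0.94. Of the dim genes, the receptor gene Rxrg went from 7.15 and the retinaldehyde reductase gene Dhrs3 from 6.94 to under the floor, both more than 2-fold lower. The synthesis gene Aldh1a2 differed by -0.88, a bound, and Cyp26a1, whose product degrades retinoic acid, by -0.21.

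The labelled cell type and the other cells that the cultures could hold were checked with marker lists. Stem cell markers were bright for 9 of 9 measured, with Pou5f1 at 13.55 and 13.34. Of them 4 were higher and 1 lower by more than 0.23, against 18.7% and 23.3% of all bright genes. Their median was 0.18. Esrrb and Nanog differed by 0.65 and 0.57, and Lin28a, the lower one, by -0.53. Feeder fibroblasts can express Hox genes, and 14 of 17 of their markers were bright. Their summed signal was 15.10 in control and 15.09 in overexpressing cells on the log2 scale. Most of that sum came from Vim, Fn1 and Sparc, at 13.34, 12.72 and 12.28 in control and 13.27, 13.01 and 12.08 in overexpressing cells. It therefore says little about the weaker markers. Over the 14 bright feeder markers the median difference was -0.06, with 5 higher and 3 lower by more than 0.23. Among all bright genes those shares were 18.7% and 23.3%. The collagen genes Col1a1, Col1a2 and Col3a1 differed by 0.01, -0.11 and -0.04. Other feeder markers differed more, with Pdgfra going from under the floor to 7.04, Pdgfrb at 0.69 and the mesenchymal homeobox gene Prrx1 at 0.29, and their part in the Hoxa values was not tested. Of 11 neural markers 6 were bright, their summed signal was 12.08 and 12.28, and Sox1 was under the floor on both arrays. Nes and Tubb3 differed by -0.66 and 0.62. Of 6 mesoderm markers 1, Eomes, was bright, and the summed signal was 9.53 and 9.32. Of 7 trophoblast markers 5 were bright, 4 of them lower by more than 0.23, against 23.3% of all bright genes. The summed signal of the 7 was 12.08 in control and 11.24 in overexpressing cells. Krt8 and Krt18 were at -1.43 and -1.25 beside Cdx2. In bulk RNA, fewer cells of a type and less RNA per cell cannot be told apart.

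**Figure D4:**
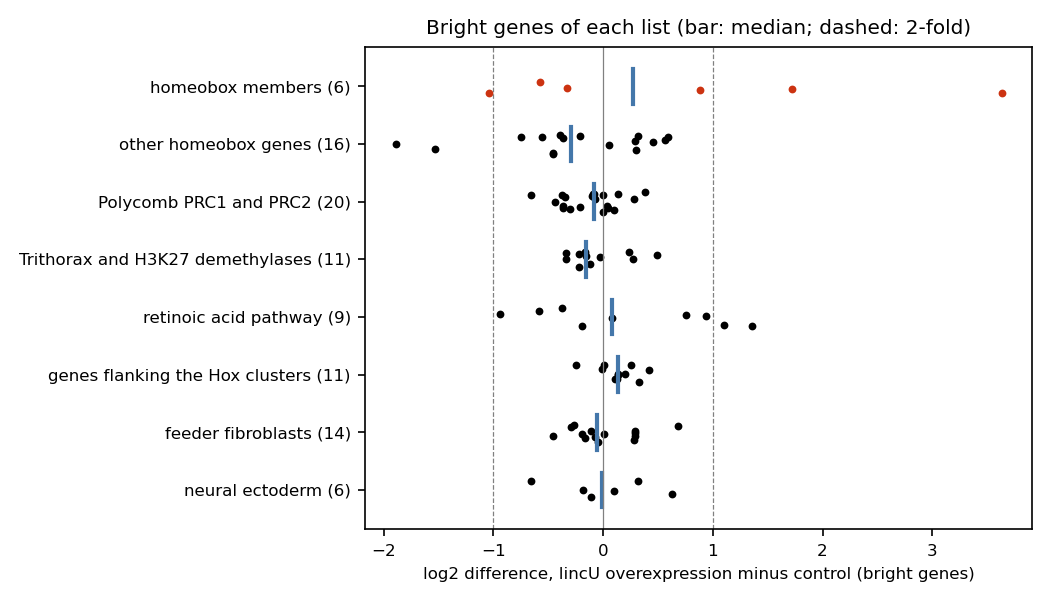
Log2 difference, lincU overexpression minus control (horizontal axis), of every bright gene in each list, 1 point per gene, with blue bars for medians and dashed lines at 2-fold. The 6 homeobox members spread from -1.04 to 3.63. Of the other homeobox genes 2 were at least 2-fold lower, and of the retinoic acid genes 2 were at least 2-fold higher. None of the Polycomb, Trithorax, flanking, feeder and neural genes reached 2-fold, against 1.53% of all bright genes higher and 1.3% lower.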

How the data were processed

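The deposited values are log2 signals, 1 for a probe set on each array. The submitters' processing notes name the affy package and MAS5, with no version, order or role, and the scaling target was not given in the sources used here. Their range, up to 15.13 and 15.26, showed the log2 scale. The table held 16994 probe sets, 64 of them controls. A single gene was named for 15273, several for 501 and none for 1156, through the platform's annotation. Symbols and chromosomes were updated by gene ID with the RefSeq gene table of GRCm38.p6, which matched 15252.

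Values were compared as deposited, on the log2 scale, with the floor and the brightness rule given above. A gene under the floor on both arrays was given a difference of 0; with 1 array under it the difference is a bound. The floors differ by array. The named genes are Hoxa10, Hoxa11, every bright member and every member at least 2-fold apart; others appear by family, count or list. Members, lists and promoter motifs were chosen with earlier results of these data known. With 1 array per group no test was possible, and the number of arrays limits precision. The counting was tested on simulated data, with differences planted only in genes above the array median in control and noise at the SD of 0.23. That setting does not cover dim members, bounds at the floor, or Hoxa10, Hoxa11 and Pax6, which were under the control median. Python 3.11.15, pandas 2.3.3 and statsmodels 0.14.6 were used.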

Additional observations from a re-analysis of the deposited data

How the results depend on the processing

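No paired analysis was possible because each group has 1 array. A call on 1 array per culture cannot be separated from variation between cultures. The members bright on either array were 6 with values as deposited, 1 with brightness at the 75th percentile, 2 with brightness required on both arrays and 3 when probe sets with names ending in _s_at, _x_at or _a_at were left out, which drops Hoxa10, Pbx3 and Six4. Under the last setting 1 member, not 3, stood above the control median. The bright members at least 2-fold higher were then 1, and 0 under either stricter brightness rule. The bright members at least 2-fold lower, 1 as deposited, were 0 under array centring, quantile normalization, the loess trend, the pseudocount, both stricter brightness rules and with those probe sets left out, and 7 with no brightness rule. The median over bright members, 0.28, was -0.58 at the 75th percentile, -0.45 with brightness on both arrays, 0.00 with no brightness rule, 0.56 with probe sets averaged and 0.88 with those probe sets left out. Hoxa10 stayed between 2.76 and 3.71 over 9 alternatives and Hoxa11 between 1.05 and 1.82 over 10. Removing the floor, using a common floor or averaging probe sets could not change either gene. Each has a single probe set, above the floor on both arrays. Over the named members, 97 of 116 alternative values moved by less than 0.23 and none changed from 2-fold in 1 direction to the other. Some of the 97 could not move for such reasons, so the tally is not a measure of stability. A common floor for both arrays, added after the data were seen, changed none of these counts.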
